A study of Mus musculus with 6 samples.

Results

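The glucocorticoid receptor gene Nr3c1, the steroid-activating enzyme gene Hsd11b1 and 8 genes that glucocorticoids are known to induce (Tsc22d3, Fkbp5, Glul, Zbtb16, Klf15, Klf9, Mt1 and Mt2) were followed in the soleus of mice, a slow postural muscle of the lower leg. They were taken by gene symbol from the deposited log2 signals, with the transcript cluster of highest mean signal for each symbol, and all 10 were found among 19938 genes measured. The arrays fell into 3 groups of 2: hindlimb suspension with electroacupuncture, hindlimb suspension alone, and control. Suspension lifts the hind limbs so that the soleus carries no load, and electroacupuncture passes current through acupuncture needles. Every sample was labelled as soleus of a male C57BL/6 mouse aged 8 weeks, and no genotype or drug was named for any group. The duration of suspension, the points needled and the hour of collection are not given in the sources used here. The design text speaks only of hybridizations in duplicate, and nothing ties the 2 arrays of a group to different animals, so the p-values measure the spread between arrays, which may be technical.

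Glucocorticoids, of which corticosterone is the main one in mice, cross the cell membrane and bind the receptor Nr3c1, which the Hsp90 chaperone machinery holds ready in the cytoplasm. The bound receptor enters the nucleus, where it binds DNA at paired half-sites spelled AGAACA and TGTTCT. In skeletal muscle, glucocorticoids favour protein breakdown and the release of amino acids, and high doses cause wasting. The half-site TGTTCT and the metal response element core, spelled TGCACNC or TGCGCNC, were looked for on both strands. The search covered the 250 bases before the start of 8 of the 10 genes. No window of Nr3c1 or Zbtb16 was used. Metallothionein genes answer to metals as well as to glucocorticoids, which is why the metal motif was included.

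The promoters of the 2 members that passed a test, Fkbp5 and Glul, and of the metallothionein gene Mt2, whose arrays differed most, are printed 5′ to 3′ on the strand of the gene (RefSeq, GRCm38.p6). They lie at chr17:28486150-28486399 on the minus strand for Fkbp5, chr1:153899679-153899928 on the plus strand for Glul and chr8:94172368-94172617 on the plus strand for Mt2. Capitals mark the metal response element core, and no glucocorticoid half-site occurred in these 3 windows.
Fkbp5: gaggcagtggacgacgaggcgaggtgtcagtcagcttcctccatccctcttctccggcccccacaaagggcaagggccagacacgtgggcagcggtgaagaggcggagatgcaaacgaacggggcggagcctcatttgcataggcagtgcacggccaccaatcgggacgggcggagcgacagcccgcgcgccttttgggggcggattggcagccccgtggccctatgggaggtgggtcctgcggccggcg
Glul: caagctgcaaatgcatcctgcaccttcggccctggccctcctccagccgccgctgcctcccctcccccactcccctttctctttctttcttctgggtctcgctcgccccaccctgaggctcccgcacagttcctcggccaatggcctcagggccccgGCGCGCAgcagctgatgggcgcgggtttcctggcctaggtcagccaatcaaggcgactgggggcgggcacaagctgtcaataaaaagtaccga
Mt2: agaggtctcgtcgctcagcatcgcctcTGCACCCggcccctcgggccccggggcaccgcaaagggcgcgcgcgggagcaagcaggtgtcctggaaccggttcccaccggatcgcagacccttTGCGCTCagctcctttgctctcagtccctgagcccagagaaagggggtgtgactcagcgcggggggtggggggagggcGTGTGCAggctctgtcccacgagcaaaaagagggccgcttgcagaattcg

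The Mt2 window held 3 metal response element cores, starting 223, 128 and 50 bases before the gene. Windows with at least 3 made up 1.26% of 32851 promoter windows of this length, and windows with at least 1 made up 21.4%. The window of Mt1, its neighbour 5315 bases downstream on chromosome 8, held 1, as did those of Glul, Hsd11b1 and Klf15. A glucocorticoid half-site was found in 1 of 3 windows of Tsc22d3, 185 bases before the start, and in no window of the other members with one, while 16.1% of all windows held at least 1. The full palindromic glucocorticoid response element has both half-sites with 3 bases between them. It was in no window of these 8 members and in 3 of all windows. Its shorter core, ACA and TGT with 3 bases between them, was found once in the windows of Glul, 25 bases before the start and left in lower case, and of Mt1, and in 5.84% of all windows. These are letter matches in a short window and describe no binding.

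Few genes passed the threshold of an adjusted p under 0.05 (limma, Benjamini-Hochberg over all genes). In suspension against control 209 genes passed, 1.05% of those tested, 107 of them higher. In suspension with electroacupuncture against control 206 passed, or 1.03%, and against suspension alone 0 passed (limma; 612 genes, or 3.07%, had an unadjusted p under 0.05). The slow-muscle genes Myh7 and Tnni1 had log2 signals from 11.62 to 12.02 and from 9.84 to 10.90 across the 6 arrays, so the labelled tissue carried its markers. As a measure of background, 1015 olfactory receptor genes had a 95th percentile of 3.50, and all 10 genes described here had mean signals above it. The 2 control arrays differed in adipocyte markers, with 12 of 12 higher on array 2 (means over the list of -0.68 and 0.68 log2 around the control mean), and the 2 suspension arrays differed in 11 of 12 fibroblast and tendon and 11 of 12 macrophage markers, higher on array 1. The tendon gene Tnmd fell by 1.20 log2 with electroacupuncture (adjusted p = 0.0111) and fell by 1.94 log2 in suspension (adjusted p = 0.00307) against control. Scx fell by 0.96 log2 with electroacupuncture against control (adjusted p = 0.0334). The slow myosin light chain gene Myl3 also fell there (adjusted p = 0.0377), with 11.19 and 11.64 against 12.30 and 12.53 in control. No adipocyte or macrophage marker passed.

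Of the 10 genes, Fkbp5 rose in suspended soleus, and Glul rose in suspended soleus with electroacupuncture, each against control. That is 1 of 10 in each comparison, beside 1.05% and 1.03% of all genes. The median difference of the 10 was 0.46 log2 in suspension and 0.45 log2 in suspension with electroacupuncture against control, where the medians over all genes were 0.01 and 0.01. Both comparisons use the same control arrays. The 10 genes were chosen with earlier results of these data known, so their shares and medians beside all genes are no independent support. The same holds for every gene list described below. Signals on all 4 suspended arrays lay above both control arrays for Hsd11b1, Fkbp5, Glul and Klf9, a pattern found in 13.1% of all genes. No member had all 4 below (11.7% of all genes).

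Counted by single comparisons, 6 of 10 members had groups that did not overlap in suspension against control, 5 higher and 1 lower, beside 39.8% of all genes (21.3% higher, 18.5% lower). In suspension with electroacupuncture against control the count was 8 of 10, 7 higher and 1 lower, beside 41.8% (21.8% higher, 20% lower). Between the suspended groups it was 3 of 10, 2 higher and 1 lower, beside 32.6% (15.4% higher, 17.1% lower). Differences above 0 numbered 7 in suspension against control (51.1% of all genes), 8 with electroacupuncture against control (51%) and 5 between the suspended groups (48.4%). An unadjusted p under 0.05 was reached by 6 members in suspension (12.7% of all genes) and by 4 with electroacupuncture (12.8%), each against control. RNA of whole muscle was measured, so fewer cells of a type and less RNA per cell cannot be told apart.

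**Figure D1:**
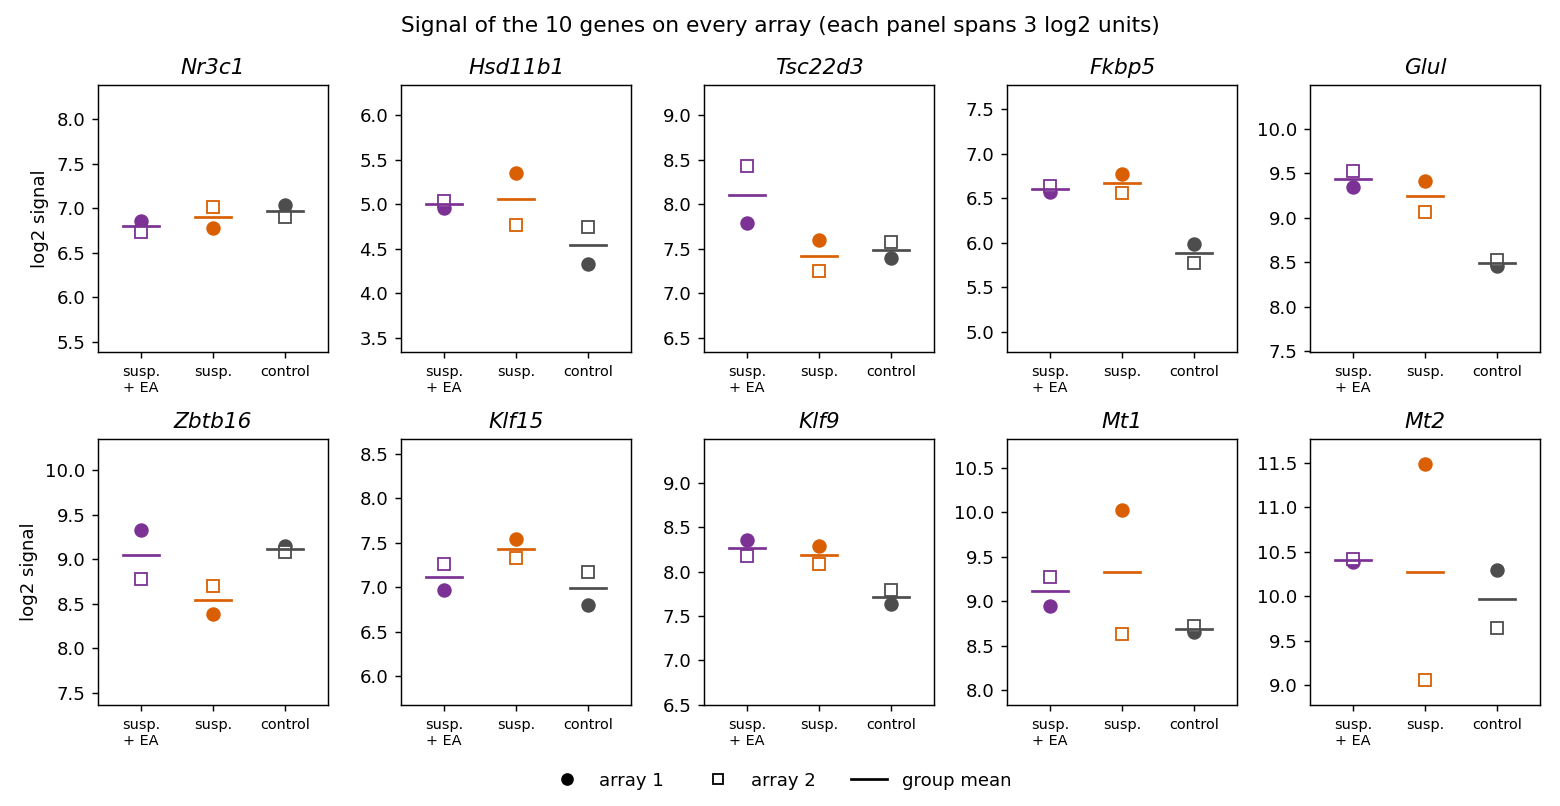
Log2 signal of each of the 10 genes (vertical axis, 3 log2 units per panel) on the 2 arrays of suspension with electroacupuncture (susp. + EA), suspension and control, with lines at the group means. Fkbp5 and Glul sit higher on all 4 suspended arrays than on both control arrays, and the 2 suspension arrays lie far apart for Mt1 and Mt2.

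The receptor gene passed no test. Nr3c1 had log2 signals of 6.86 and 6.73 on arrays 1 and 2 of suspension with electroacupuncture, 6.78 and 7.01 in suspension, and 7.04 and 6.90 in control. The suspension arrays overlapped control, while both electroacupuncture arrays lay below it. Its difference from control was -0.07 ± 0.14 log2 in suspension (SE, 95% interval -0.40 to 0.25, adjusted p = 0.888). With electroacupuncture it was -0.17 ± 0.14 (interval -0.50 to 0.15, adjusted p = 0.708). These intervals do not mark the smallest change that 2 arrays a group could detect. With a like SE of 0.14, the Klf9 difference of 0.55 log2 with electroacupuncture against control did not pass.

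Hsd11b1 encodes the enzyme of the endoplasmic reticulum that regenerates active glucocorticoid from its inactive 11-keto form inside the cell. Its signals were 4.96 and 5.04 in suspension with electroacupuncture, 5.35 and 4.76 in suspension, and 4.33 and 4.75 in control. All 4 suspended arrays were above control, but suspension array 2 exceeded control array 2 by little. The difference of suspension from control, 0.52 ± 0.22 log2 (adjusted p = 0.378), did not pass, nor did that of suspension with electroacupuncture, 0.46 ± 0.22 (adjusted p = 0.447). With arrays left out in turn the first of these ranged from 0.22 log2, without suspension array 1, to 0.82, without suspension array 2. The higher suspension array, array 1, was also the one with higher fibroblast and macrophage markers, and the higher control array, array 2, the one with higher adipocyte markers. The part of these cells in the Hsd11b1 signal was not tested. H6pd, which supplies the NADPH that the enzyme uses, had a similar course, with 6.42 and 6.47 in suspension with electroacupuncture, 6.41 and 6.28 in suspension, and 5.52 and 5.86 in control. The difference of H6pd was 0.76 ± 0.15 log2 with electroacupuncture (adjusted p = 0.0636) and 0.66 ± 0.15 in suspension (adjusted p = 0.0971), and neither passed. Hsd11b2, the enzyme that inactivates the hormone, was close to background, with 4.02 and 3.63 in suspension with electroacupuncture, 3.55 and 3.52 in suspension, and 4.09 and 4.07 in control (suspension minus control -0.55, adjusted p = 0.227). Of 6 measured genes of steroid supply and removal, none passed in any comparison.

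Fkbp5, an Hsp90 co-chaperone that lowers the affinity of the receptor for its hormone and is induced by it, had the smallest p of the 10 in suspension. Its signals were 6.57 and 6.64 in suspension with electroacupuncture, 6.77 and 6.56 in suspension, and 5.99 and 5.78 in control. The 4 suspended arrays lay within a narrow band well above both controls. Fkbp5 rose by 0.78 ± 0.15 log2 in suspension against control, or 1.72-fold (95% interval 0.46 to 1.11, adjusted p = 0.0468). In suspension with electroacupuncture the difference from control was 0.72 ± 0.15 (1.65-fold, adjusted p = 0.0619), which did not pass. Between the suspended groups it was -0.07 ± 0.15 log2 (interval -0.40 to 0.26). The call in suspension stood at the edge of the threshold: it was kept without control array 1 and lost without control array 2 (adjusted p = 0.0847), suspension array 1 (0.227), suspension array 2 (0.130) or electroacupuncture array 1 or 2 (0.129 for each), with differences from 0.68 to 0.89 log2. With all arrays it was also lost without a variance trend (adjusted p = 0.0896), with array weights (0.0730) and with the compared groups alone (0.130).

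Glul encodes glutamine synthetase, which makes the glutamine that muscle exports when amino acids are released. Its signals were 9.34 and 9.53 in suspension with electroacupuncture, 9.42 and 9.07 in suspension, and 8.46 and 8.52 in control. Both controls were close together and well below every suspended array. Glul rose by 0.94 ± 0.15 log2, or 1.92-fold, in suspension with electroacupuncture against control (95% interval 0.60 to 1.29, adjusted p = 0.0286). In suspension alone the difference was 0.75 ± 0.15 log2, or 1.68-fold (adjusted p = 0.0649). The suspended groups differed from each other by 0.19 ± 0.15 log2 (interval -0.15 to 0.54). The call with electroacupuncture was lost without control array 1 (adjusted p = 0.0632), electroacupuncture array 1 (0.174) or electroacupuncture array 2 (0.260), and with all arrays it was lost without a variance trend (0.0627). Glul was also the gene with a second transcript cluster of its own, in which the difference of suspension from control passed (0.80 log2, adjusted p = 0.0342).

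**Figure D2:**
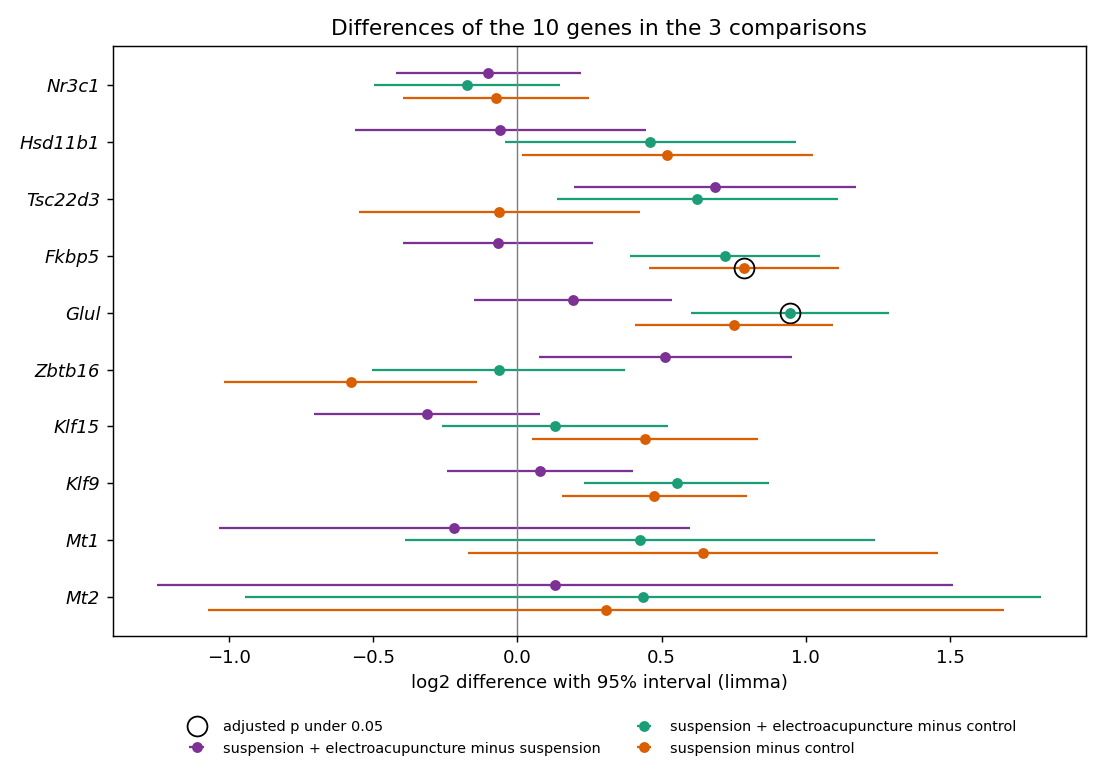
Log2 difference of each gene with its 95% interval from limma (horizontal axis) in the 3 comparisons, with circles around the values past an adjusted p of 0.05. Fkbp5 in suspension (0.78) and Glul in suspension with electroacupuncture (0.94), both against control, are circled, and the intervals of Mt1 and Mt2 are the widest.

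The 2 Krüppel-like factors passed no test. Klf9, a zinc-finger repressor induced by glucocorticoids in many tissues, had signals of 8.36 and 8.17 in suspension with electroacupuncture, 8.29 and 8.08 in suspension, and 7.63 and 7.79 in control. All suspended arrays were higher than control. The differences from control were 0.55 ± 0.14 log2 with electroacupuncture (adjusted p = 0.131) and 0.47 ± 0.14 in suspension (adjusted p = 0.182), and neither passed. Klf15, which drives the breakdown of branched-chain amino acids in muscle, had 6.97 and 7.27 in suspension with electroacupuncture, 7.54 and 7.33 in suspension, and 6.81 and 7.17 in control. Suspension alone lay above control on both arrays, whereas the electroacupuncture arrays overlapped control and lay below suspension. The difference of suspension from control was 0.44 ± 0.17 log2 (adjusted p = 0.328), and that of suspension with electroacupuncture from suspension was -0.31 ± 0.17 (adjusted p = 1.00).

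Tsc22d3 and Zbtb16 were the members that differed most between the suspended groups. Tsc22d3 encodes GILZ, a leucine zipper protein that restrains inflammatory transcription factors and is among the most widely used markers of receptor activity. Its signals were 7.78 and 8.43 in suspension with electroacupuncture, 7.59 and 7.25 in suspension, and 7.39 and 7.57 in control. Suspension and control overlapped, and both electroacupuncture arrays were above all others, by a wide margin on array 2 alone. With electroacupuncture Tsc22d3 differed by 0.69 ± 0.22 log2 from suspension (unadjusted p = 0.0112, adjusted p = 1.00 in limma) and by 0.62 ± 0.22 from control (adjusted p = 0.259). The difference from suspension was 0.36 log2 without electroacupuncture array 2 and 1.01 without array 1. Its difference of suspension from control was -0.06 ± 0.22 (interval -0.55 to 0.42).

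Zbtb16 encodes the zinc-finger repressor PLZF, which is strongly induced by glucocorticoids in human cells. Its signals were 9.33 and 8.77 in suspension with electroacupuncture, 8.38 and 8.69 in suspension, and 9.15 and 9.08 in control. It was the only member whose suspension arrays both lay below control. The difference of suspension from control was -0.58 ± 0.19 log2 (unadjusted p = 0.0153, adjusted p = 0.241). Suspension with electroacupuncture differed from suspension by 0.51 ± 0.19 log2 (unadjusted p = 0.0264, adjusted p = 1.00) and from control by -0.06 ± 0.19. The difference from suspension was 0.23 log2 without electroacupuncture array 1 and 0.79 without array 2. The 2 electroacupuncture arrays were 0.56 log2 apart, so array 2 sat near the suspension level and array 1 above both controls. An unadjusted p under 0.05 was reached by 2 of 10 members between the suspended groups, against 3.07% of all genes, and the gap between the 2 electroacupuncture arrays was larger than in 97.9% of genes for Tsc22d3 and 96.4% for Zbtb16. Their part in the difference was not tested.

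Metallothioneins are small cysteine-rich proteins that bind zinc and copper, and their genes answer to zinc through the factor Mtf1 and to glucocorticoids. Mt1 had signals of 8.94 and 9.28 in suspension with electroacupuncture, 10.03 and 8.64 in suspension, and 8.65 and 8.72 in control. Mt2 had 10.38 and 10.42 in suspension with electroacupuncture, 11.49 and 9.06 in suspension, and 10.29 and 9.64 in control. For both genes suspension array 1 was the highest of the 6 arrays and suspension array 2 the lowest. The suspension arrays differed by 1.39 log2 for Mt1 and 2.43 log2 for Mt2, ranks 47 and 10 by size among 19938 genes. A difference of at least 1 log2 between these arrays was found in 0.712% of genes. The 2 electroacupuncture arrays lay above both controls for each gene, by a small margin for Mt2.

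No difference of Mt1 or Mt2 passed. Suspension minus control was 0.64 ± 0.36 log2 for Mt1 (adjusted p = 0.525) and 0.31 ± 0.61 for Mt2 (adjusted p = 0.892). Without suspension array 1 the values were -0.052 and -0.91 log2, so their direction rested on that array. With electroacupuncture the differences from control were 0.42 ± 0.36 for Mt1 and 0.44 ± 0.61 for Mt2. Other genes of metal handling moved less than Mt1 and Mt2 between the suspension arrays. Mtf1 had 5.44 and 5.26, the zinc exporter gene Slc30a1 5.56 and 5.18, and the zinc importer gene Slc39a14 6.13 and 5.09. The gap of Slc39a14, 1.04 log2, was the only one of this list of at least 1 log2. Of 10 genes of the metal and oxidant response list, none passed in any comparison, and 6 of 10 were higher on suspension array 1. Hmox1, the haem-degrading enzyme gene, had the largest difference of that list from control, with 6.06 and 5.69 in suspension with electroacupuncture and 5.63 and 5.39 in suspension against 4.18 and 5.26 in control.

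**Figure D3:**
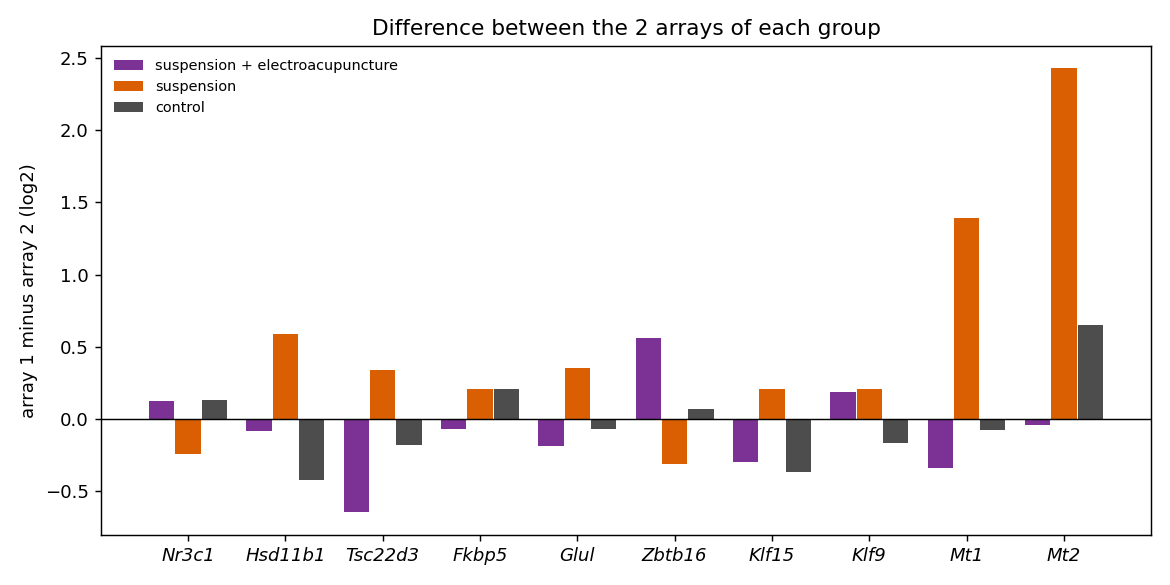
Difference between array 1 and array 2 of each group (vertical axis, log2) for the 10 genes, with bars for suspension with electroacupuncture, suspension and control. Mt2 and Mt1 in suspension (2.43 and 1.39) exceed every other bar, and Tsc22d3 and Zbtb16 have their longest bars in the electroacupuncture group.

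The gap between the suspension arrays was shared by glucocorticoid-induced genes outside the 10. A list of such genes was drawn from general knowledge, but with earlier results of these data known, so it is no independent support. Of its 31 measured genes, among them Per1, Sgk1, Ddit4, Cebpd and Pdk4, 30 were higher on suspension array 1 than on array 2. The median difference was 0.33 log2. Over all genes 54.4% were higher on array 1, with a median of 0.03. Of the 8 induced members 7 were higher on array 1, Zbtb16 being the exception. In the electroacupuncture group the balance lay the other way, with 25 of 31 higher on array 2 (48.8% of all genes) and a median of -0.21 for array 1 minus array 2. In control 19 of 31 were higher on array 2 (48.1% of all genes). These are descriptions of single arrays, with no test.

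Lcn2 and Cebpd, 2 genes of this list with wide gaps, were chosen after their values were seen. Lcn2, a siderophore-binding acute-phase gene, had 6.04 and 5.91 in suspension with electroacupuncture, 6.50 and 4.95 in suspension, and 4.84 and 4.96 in control. Cebpd, a transcription factor of the acute-phase response, had 4.80 and 5.70 in suspension with electroacupuncture, 5.85 and 4.84 in suspension, and 4.83 and 4.98 in control. Cebpd was thus high on 1 array of each suspended group and near control on the other. The macrophage markers of suspension array 1 lay at 0.53 log2 from the control mean and those of array 2 at -0.08, and fibroblast and tendon markers at -0.17 and -1.02. In the electroacupuncture arrays macrophage markers lay at 0.73 and 0.39, and fibroblast and tendon markers at -0.49 and -0.48. Soleus muscle markers lay at -0.43 and -0.11 there, with 10 of 11 higher on array 2 (48.8% of all genes). They lay at -0.29 on each suspension array, and in control 11 of 11 were higher on array 2 (48.1% of all genes). The part of all these markers in the gaps between arrays was not tested.

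**Figure D4:**
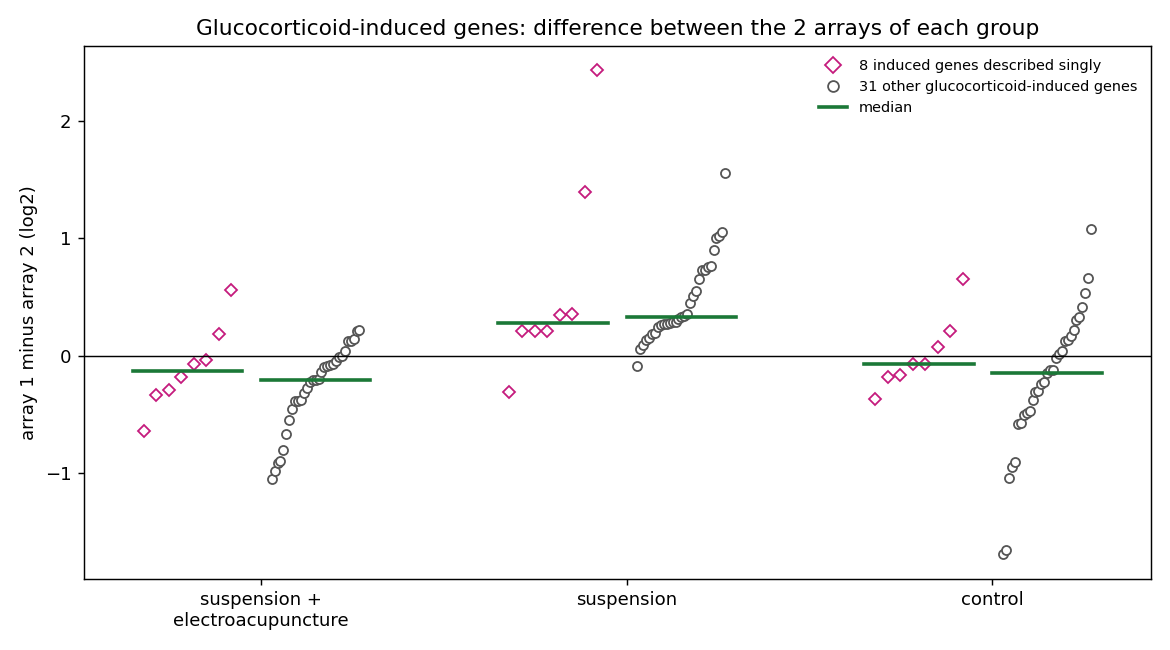
Difference between array 1 and array 2 (vertical axis, log2) of each group for the 8 induced members (diamonds) and 31 other glucocorticoid-induced genes (circles), with lines at the medians. In suspension 30 of 31 circles lie above 0, and in suspension with electroacupuncture 25 of 31 lie below it.

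Across groups the 31 other induced genes did not move as a block. In suspension against control 1 rose and 0 fell (1.05% of all genes passed), with a median of 0.04 log2 and 17 differences above 0 (51.1% of all genes). In suspension with electroacupuncture against control 1 rose and 0 fell (1.03% of all genes passed), with a median of 0.13 and 20 above 0 (51% of all genes), and against suspension 0 passed, with a median of 0.11. The gene that rose in both was Fbxo32, which encodes the atrophy ubiquitin ligase atrogin-1. It differed from control by 0.85 ± 0.15 log2 with electroacupuncture (adjusted p = 0.0404) and by 1.35 ± 0.15 in suspension (adjusted p = 0.00854). Next by p came Pik3r1, a regulatory subunit of PI3 kinase, and the clock repressor Cry2. Pik3r1 differed from control by 0.65 log2 with electroacupuncture (adjusted p = 0.0542) and 0.52 in suspension (adjusted p = 0.105). Cry2 differed by 1.23 log2 (adjusted p = 0.0702) and 1.20 (adjusted p = 0.0776) in the same comparisons. Per1, a clock gene that the receptor induces directly, had 7.68 and 8.14 in suspension with electroacupuncture, 7.53 and 6.88 in suspension, and 6.87 and 6.86 in control. Its arrays with electroacupuncture were above all others, as those of Tsc22d3 were, with a difference of 0.71 ± 0.22 log2 from suspension (adjusted p = 1.00). The kinase gene Map3k6 had a difference of 0.67 log2 from suspension in the electroacupuncture group, and the atrophy ligase gene Trim63 had -0.64 (adjusted p = 1.00 for both).

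Chaperones and co-chaperones of the receptor had group means below control for 11 of 11 measured with electroacupuncture and for 10 of 11 in suspension. The exception was Ptges3, the Hsp90 co-chaperone p23, with 8.45 and 8.43 in suspension against 8.27 and 8.31 in control (difference 0.15, adjusted p = 0.712). Of all 19938 genes, 9762 lay below control with electroacupuncture and 9742 in suspension. Hsp90ab1 was listed but not measured. Of the 11, 0 passed in any comparison, yet all 4 suspended arrays were below both controls for 9 (11.7% of all genes). Their median was -0.34 log2 with electroacupuncture and -0.36 in suspension, against 0.01 and 0.01 over all genes. Hspa8, the constitutive HSP70, had 10.96 and 11.12 in suspension with electroacupuncture, 11.05 and 10.97 in suspension, and 11.59 and 11.68 in control (suspension minus control -0.63, adjusted p = 0.0721). Stip1, which links HSP70 to Hsp90 (-0.52), Dnajb1, an HSP40 (-0.56), and the inducible Hsp90 gene Hsp90aa1 (-0.53) showed suspension minus control differences with adjusted p from 0.141 to 0.154. Fkbp4, which competes with Fkbp5 for the receptor complex and favours its movement to the nucleus, differed by -0.40 log2 from control with electroacupuncture (adjusted p = 0.236) and by -0.10 in suspension (adjusted p = 0.825).

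Coregulators and the second corticosteroid receptor ran opposite to the chaperones. Of 8 measured, 0 passed, and all 8 differences from control were above 0 in both suspended groups. Over all genes 51% were above 0 with electroacupuncture and 51.1% in suspension. The list medians were 0.23 log2 with electroacupuncture and 0.30 in suspension, against 0.01 and 0.01 over all genes. The coactivator gene Ncoa1 had 6.97 and 6.84 in suspension with electroacupuncture, 7.09 and 6.94 in suspension, and 6.37 and 6.48 in control (suspension minus control 0.59, adjusted p = 0.0903). The mineralocorticoid receptor gene Nr3c2, whose product also binds corticosterone, had 6.19 and 6.02 in suspension with electroacupuncture, 6.19 and 6.09 in suspension, and 5.50 and 5.81 in control (suspension minus control 0.48, adjusted p = 0.222). On control array 1 all 8 genes of this list were lower than on control array 2. Nrip1, a corepressor, and the acetyltransferase gene Ep300 differed by 0.41 and 0.34 log2 in suspension (adjusted p = 0.287 and 0.315).

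Genes of branched-chain amino acid and proline breakdown include targets of Klf15. The list used here also held the aminotransferase genes Gpt, Gpt2, Got1 and Tat, which are outside these pathways. Of 15 measured, 1 rose and 0 fell in each suspended group against control, and 0 passed between the suspended groups. Over all genes 1.03% passed with electroacupuncture and 1.05% in suspension, each against control. Medians were 0.15 log2 with electroacupuncture and 0.25 in suspension against control, where those over all genes were 0.01 and 0.01. The gene was Gpt2, a mitochondrial alanine aminotransferase, so no gene of branched-chain or proline breakdown itself passed. Gpt2 had 7.55 and 7.79 in suspension with electroacupuncture, 7.67 and 7.69 in suspension, and 6.23 and 6.54 in control. Its difference from control was 1.29 ± 0.15 log2 in each suspended group (adjusted p = 0.0111 with electroacupuncture and 0.0102 in suspension), or 2.44-fold and 2.45-fold. The branched-chain keto acid dehydrogenase genes Dbt and Bckdha differed by 0.52 and 0.55 log2 in suspension (adjusted p = 0.133 and 0.233), and Prodh, the first enzyme of proline breakdown, by 0.44 (adjusted p = 0.212). Between the suspended groups 14 of 15 differences were below 0 (51.6% of all genes), with a median of -0.14 log2. Gpt2 differed by -0.0059 log2 there and Klf15 by -0.31 log2, and neither passed. The part of Klf15 was not tested.

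**Figure D5:**
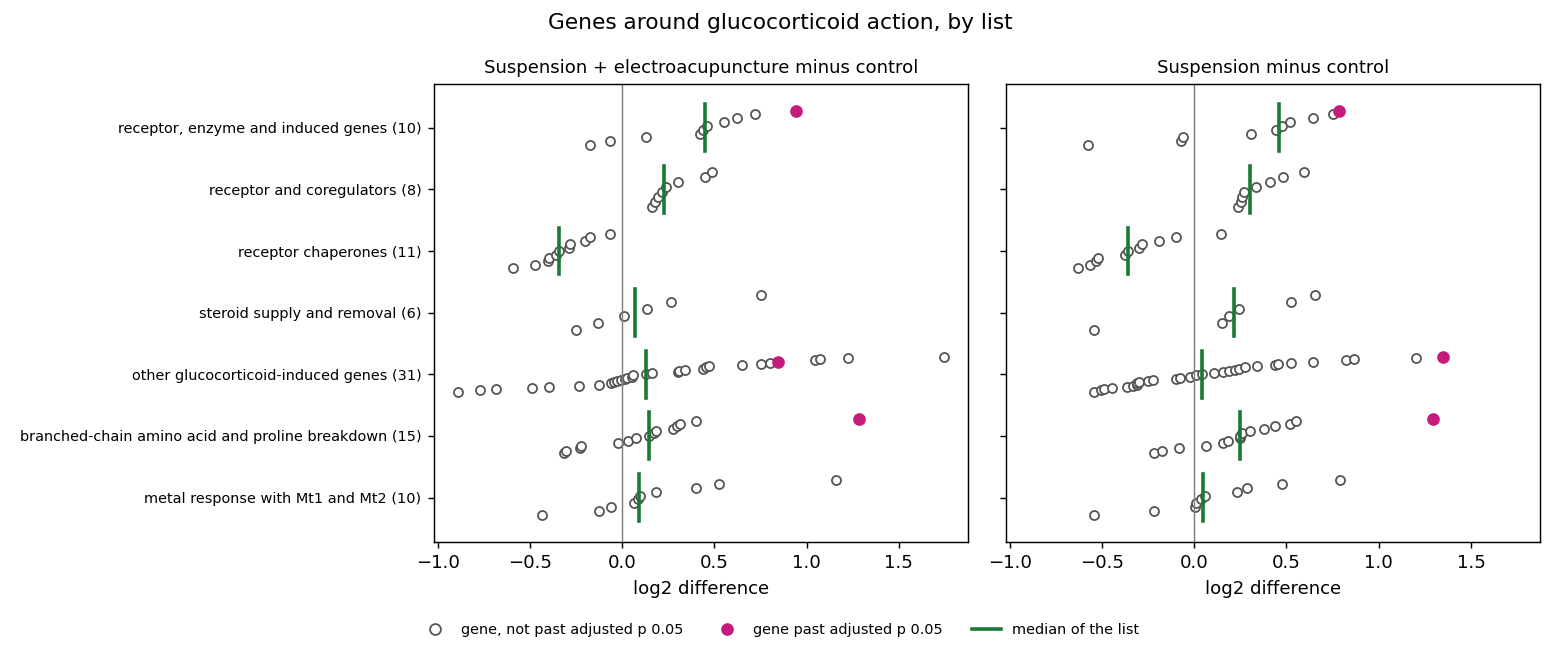
Log2 differences from control (horizontal axis) of every measured gene of 7 lists, in suspension with electroacupuncture (left) and in suspension (right), with lines at the list medians and filled points past an adjusted p of 0.05. Fbxo32 and Gpt2 are filled in both panels, Glul on the left and Fkbp5 on the right, and the receptor chaperones have medians of -0.34 and -0.36.

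The genes whose profile over the 6 arrays lay nearest to a member were found by the root mean square difference of values centred on their own mean. Nearest to Fkbp5 were the cold-inducible RNA-binding protein gene Cirbp (0.06 log2), Pik3ip1, an inhibitor of PI3 kinase (0.06), and the nuclear receptor gene Rora (0.07). Nearest to Glul were the muscle coactivator gene Mamstr (0.07), the flavin monooxygenase gene Fmo2 (0.08) and the kinase gene Tec (0.09). Pik3ip1 had 6.73 and 6.72 in suspension with electroacupuncture, 6.73 and 6.66 in suspension, and 6.08 and 5.88 in control, which was the pattern of Fkbp5 with less spread. The mean profile of the 8 induced members was nearest to the transcribed pseudogene Gm38402 (0.03), Odr4 (0.07) and Eif4ebp2, a brake on translation (0.07). That mean lay at 0.42 and 0.52 log2 from control on the electroacupuncture arrays and at 0.65 and 0.04 on the suspension arrays. Without Mt1 and Mt2 the suspension values were 0.39 and 0.22, and those with electroacupuncture 0.45 and 0.52.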

How the data were processed

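Total RNA of mouse soleus was hybridized to Affymetrix 1.0 ST arrays. The authors deposited log2 signals, which were used as they stood. The submitters' processing notes name RMA and Affymetrix Expression Console, with no version. Of 35556 transcript clusters, 21789 had 1 gene symbol in the platform annotation and were kept; clusters with several or no symbols were left out. For 999 genes with more than 1 cluster the one with the highest mean was taken, and no filter on signal was applied. The number of arrays limits the precision.

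The 3 group means were estimated together from the 6 arrays in limma 3.58.1 (R 4.3.3). The prior variance was a trend on mean signal, and p-values were adjusted by Benjamini and Hochberg over all genes. Values are log2 differences ± SE. The fit was tested on simulated data with known changes and noise drawn separately for each gene and array. The arrays here differed in whole marker lists, so the simulation does not measure the error of the fit on them.

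The members and gene lists were chosen with earlier results of these data known. Named were all members and, of each list, genes past the threshold and up to 4 with the smallest p; genes outside this rule (Lcn2, Cebpd, Mtf1, Sgk1, Ddit4, Pdk4, Myh7, Tnni1 and the markers past the threshold) were chosen after their values were seen. RefSeq promoter windows of 8 of 10 members were used, and none of Nr3c1 or Zbtb16. The Mt1 window overlaps the annotated gene and is not printed. The fit was repeated with no trend or a robust prior, weights for arrays, a median-signal filter, 3 normalizations, the mean of all clusters, the compared groups alone, a replicate block and each array left out.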

Additional observations from a re-analysis of the deposited data

Results flagged for a closer look

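Glul had a second transcript cluster, which the main fit did not use. Its signal was higher on all 4 suspended arrays than on both control arrays. It had 8.95 and 8.99 in suspension with electroacupuncture, 8.92 and 8.80 in suspension, and 8.19 and 7.94 in control. In the same fit its difference from control was 0.91 log2 with electroacupuncture and 0.80 log2 in suspension.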

How the results depend on the processing

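Of 540 member differences recomputed under the alternatives, 502 kept their direction and their side of the threshold, 15 lost a pass, 7 gained one and 16 reversed. All 16 reversals came from leaving out an array, and none was of Fkbp5 or Glul against control. In suspension against control (209 genes and 1 member passed), 80 genes passed without a variance trend, 130 with array weights, 68 with the compared groups alone and 102 with the replicate block, and 0 members passed under each. In that comparison 2 members, Fkbp5 and Glul, passed with the filter, repeated quantile normalization (289 genes), cyclic loess (295 genes) and the mean of clusters, and likewise with the second Glul cluster, an alternative chosen after seeing the data. In suspension with electroacupuncture against control (206 genes and 1 member), 101 genes passed without a trend (0 members), 127 with the replicate block (0 members), 129 with the groups alone and 312 after repeated quantile normalization, and 2 members passed with the filter. Between the suspended groups (0 genes), 1 passed with the robust prior, 4 with array weights and 3 with the groups alone, and 0 members throughout. With the block the adjusted p was 0.0875 for Fkbp5 in suspension and 0.0578 for Glul with electroacupuncture. Replicate numbers did not pair the samples: deviations of same-numbered arrays correlated at -0.02 (electroacupuncture and suspension), 0.02 (electroacupuncture and control) and -0.16 (suspension and control). The crossed block, added after seeing the data, gave 266, 0 and 285 genes in suspension against control, between the suspended groups and with electroacupuncture against control, with 1, 0 and 1 members, Glul in place of Fkbp5 in suspension. With each array left out in turn, 16 (without suspension array 1) to 301 (without control array 2) genes and 0 to 1 members passed in suspension against control, 0 to 3 genes between the suspended groups, and 2 (without electroacupuncture array 2) to 299 genes and 0 to 1 members with electroacupuncture against control. Leaving out arrays moved the suspension minus control difference between -0.19 and 0.045 log2 for Nr3c1, -0.23 and 0.11 for Tsc22d3, -0.052 and 1.34 for Mt1, and -0.91 and 1.52 for Mt2. The difference between the suspended groups ranged from -0.22 to 0.019 for Nr3c1, -0.35 to 0.24 for Hsd11b1, -0.17 to 0.038 for Fkbp5, -0.027 to 0.18 for Klf9, -0.91 to 0.48 for Mt1 and -1.08 to 1.35 for Mt2. With electroacupuncture against control it ranged from -0.34 to 0.21 for Zbtb16 and -0.054 to 0.31 for Klf15. The cause was not tested, beyond the smaller number of arrays or genes that some settings use. No setting moved the median of all genes by over 0.1 log2.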
